A study of Mus musculus with 4 samples.

Results

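Connexins are the proteins of gap junctions, the channels that join the cytoplasm of neighbouring cells, and 4 connexin genes measured in mouse skin are described here out of 18193 genes on the arrays. They are Gjb2 (which encodes Cx26), Gjb6 (Cx30), Gjb5 (Cx31.1) and Gja1 (Cx43). They were chosen by their measured signals, that is, with their difference between MC903-treated and Control skin already known, so that difference is given as a description and without a test. The array annotation assigns 9 probe sets to the 4 genes, and each gene is represented by its probe set with the highest mean over the 4 arrays.

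The samples were 2 arrays of skin treated with MC903 (calcipotriol, a drug related to vitamin D and a cause of dermatitis in mice) and 2 arrays of skin treated with ethanol, its vehicle, labelled Control. All came from wild type female BALB/c mice of unstated age. Per the labels' protocols, mice of both groups had first been sensitised on the ear with ovalbumin together with MC903 and challenged with ovalbumin by mouth. The MC903 or ethanol treatment followed that challenge, and a further oral challenge came after it, so the Control mice had also met MC903 during sensitisation. Nothing in the labels says that the arrays of a group came from separate animals, so the spread between them may be technical, and their number limits the precision.

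A connexin has a short name for the gene subfamily (alpha, Gja; beta, Gjb) and another for the mass of the protein. Connexin molecules join into a ring in the membrane, and the rings of 2 cells dock end to end to make a channel for ions and small metabolites. Undocked rings, called hemichannels, can open to the outside and release ATP. In normal epidermis Cx43 is the main connexin of keratinocytes, while Cx26 is scarce between hair follicles and is known from human skin to be abundant in psoriatic plaques and at wound edges. Human GJB2 and GJB6 mutations cause deafness and disorders of the skin or its appendages.

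Gjb2 and Gjb6 are neighbours in the genome. In the GRCm38.p6 annotation of RefSeq they lie next to Gja3 on chromosome 14, with 1 non-coding gene between Gjb2 and Gjb6 and no other protein-coding gene in the cluster. Gjb5 lies in another cluster on chromosome 4 with Gja4. Gja1 stands alone on chromosome 10. The 250 bases before each start site, from RefSeq (GRCm38.p6), are shown because the 2 neighbours Gjb2 and Gjb6 were both higher with MC903 while Gjb5 and Gja1 were not. They are written 5′ to 3′ on the gene's own strand. The windows are chr14:57104703-57104952 (minus strand) for Gjb2, chr14:57133612-57133861 (minus strand) for Gjb6, chr4:127358165-127358414 (minus strand) for Gjb5 and chr10:56377050-56377299 (plus strand) for Gja1. Capitals mark matches, on either strand, to the motifs named after the sequences.
Gjb2: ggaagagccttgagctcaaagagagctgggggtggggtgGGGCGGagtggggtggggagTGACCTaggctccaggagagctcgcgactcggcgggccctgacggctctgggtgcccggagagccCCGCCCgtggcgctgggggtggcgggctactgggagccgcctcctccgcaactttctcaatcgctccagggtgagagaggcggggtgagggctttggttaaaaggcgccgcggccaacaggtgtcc
Gjb6: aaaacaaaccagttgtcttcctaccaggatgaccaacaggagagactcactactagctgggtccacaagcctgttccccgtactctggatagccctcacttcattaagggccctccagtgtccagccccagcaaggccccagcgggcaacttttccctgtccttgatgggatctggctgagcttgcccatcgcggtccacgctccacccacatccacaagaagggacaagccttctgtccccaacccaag
Gjb5: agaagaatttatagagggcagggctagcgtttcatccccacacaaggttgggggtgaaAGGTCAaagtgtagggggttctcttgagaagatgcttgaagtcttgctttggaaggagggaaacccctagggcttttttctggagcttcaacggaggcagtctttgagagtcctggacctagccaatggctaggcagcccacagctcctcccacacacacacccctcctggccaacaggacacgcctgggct
Gja1: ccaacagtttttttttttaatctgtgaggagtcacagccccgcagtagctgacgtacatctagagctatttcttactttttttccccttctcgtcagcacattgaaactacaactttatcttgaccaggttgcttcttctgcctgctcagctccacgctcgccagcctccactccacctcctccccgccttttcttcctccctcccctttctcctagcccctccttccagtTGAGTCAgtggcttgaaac

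The motifs searched were TGANTCA (bound by AP-1), GGGCGG (the GC box), and the nuclear receptor half-sites AGGTCA and AGTTCA. Each half-site was also searched as a direct repeat with NNN between its copies, a spacing used by the vitamin D receptor, and such a repeat overlaps the half-sites in it. The Gjb2 window holds 2 GC boxes, 1 on each strand, that begin 211 and 126 bases before the start site, and 1 AGGTCA on the opposite strand at 191. A GC box is held by 32.7% of the 32851 promoter windows in the table, and AGGTCA by 14%. The Gjb5 window holds 1 AGGTCA at 192 bases before the start. The Gja1 window holds the AP-1 letters TGAGTCA at 19 bases before the start, a motif found in 6.75% of windows. The Gjb6 window holds none of these letters, and none of the 4 windows holds AGTTCA (11.8% of all windows) or either repeat, found in 0.00609% of windows for AGGTCA and in 0% for AGTTCA. The windows also differ in base composition, with 69.2% G and C for Gjb2 (higher than 90.2% of all windows), 56.8% for Gjb6, 54.4% for Gjb5 and 50% for Gja1. A match of letters is a description of the sequence, and binding was not measured.

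All signals are array intensities scaled to a common trimmed mean of 500 on each array, and the median probe-set signal was 90.2 and 99.6 in MC903 and 109 and 99.7 in Control. The 3 probe sets for the bacterial gene trp (the TrpnX controls), a guide to background here, reached at most 24. Being so few, they set no detection limit. Cyp24a1, the vitamin D-inactivating enzyme that vitamin D analogues induce, had signals of 17296 and 10385 with MC903 against 12.7 and 40.8 in Control, so the arrays fit their treatment labels. Differences below are MC903 minus Control on the log2(signal + 16) scale, with the standard error (SE) of limma (n = 2 per group). Fold values use the same constant of 16.

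Gjb6 had the largest difference of the 4 genes. Cx30, its product, is a beta connexin of stratified epithelia and the inner ear. Its signals were 4214 and 1526 in MC903 skin, against 379 and 356 in Control skin. Both MC903 arrays stood far above both Control arrays, and the Control arrays were close to each other. The difference was 2.74 ± 0.52 (SE), a geometric mean of 6.66-fold. The 4 pairings of an MC903 with a Control array gave 10.7-, 11.4-, 3.90- and 4.15-fold, so Gjb6 was more than 2-fold higher in each, as were 1.16% of all genes. Only 53 genes, 0.291% of those measured, had a larger positive difference. In such bulk samples, a change in the number of cells of a type and a change in RNA per cell cannot be told apart. MC903 replicate 1 was 2.76 times MC903 replicate 2, and the difference was 2.01 without replicate 1 and 3.46 without replicate 2.

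Gjb2 was also higher with MC903, with a wider spread. Its product Cx26 can form mixed channels with Cx30, as in the inner ear. Its signals were 10646 and 3627 in MC903 skin, against 1504 and 2748 in Control skin. The groups did not overlap, but the lower MC903 signal was only 1.32 times the higher Control signal. Both MC903 arrays stood above both Control arrays for 21.6% of all genes, so that alone says little about Gjb2. The difference was 1.60 ± 0.62 (SE), a geometric mean of 3.04-fold, and 171 genes (0.94%) had a larger one. The 4 pairings gave 7.01-, 3.86-, 2.40- and 1.32-fold. The MC903 arrays differed by 2.94 times, replicate 1 again the higher, and the Control arrays by 1.83 times. The difference was 0.83 without MC903 replicate 1 and 2.38 without MC903 replicate 2.

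Gjb5 showed no separation of the groups. Cx31.1 is a beta connexin of the differentiating epidermis and, in mice, of the placenta. Its signals were 1885 and 2676 in MC903 skin, against 2634 and 2522 in Control skin. MC903 replicate 1 lay below both Control arrays and MC903 replicate 2 just above both. The difference was -0.20 ± 0.23 (SE), or 0.872-fold, and it became 0.05 without MC903 replicate 1 and -0.45 without MC903 replicate 2. The median difference over all genes was -0.04.

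Gja1 was slightly lower with MC903. Cx43 is the most widely expressed connexin, found in keratinocytes, fibroblasts, the hair follicle and smooth muscle. Its signals were 11563 and 10676 in MC903 skin, against 13536 and 14624 in Control skin. Each MC903 array lay below each Control array, as was the case for 28.2% of all genes. The difference was -0.34 ± 0.16 (SE), or 0.790-fold. Of the 18193 genes, 3878 had a more negative difference and 78.7% a higher one. The 4 pairings ran between 0.730- and 0.854-fold, a narrow range beside those of Gjb2 and Gjb6.

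**Figure D1:**
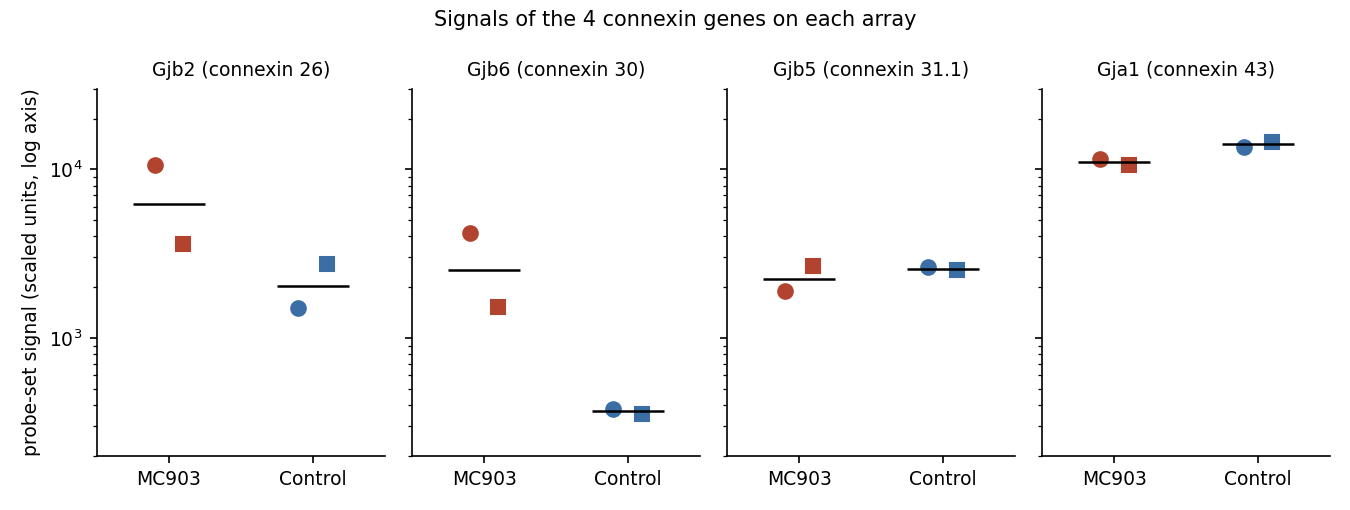
Probe-set signals (scaled units, log axis) of Gjb2, Gjb6, Gjb5 and Gja1 on the 2 MC903 arrays (left of each panel) and the 2 Control arrays (right), circles for replicate 1, squares for replicate 2 and bars for the geometric mean. Gjb6 is separated most widely (1526 and 4214 against 356 and 379), Gjb2 less so, and Gjb5 overlaps.

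**Figure D2:**
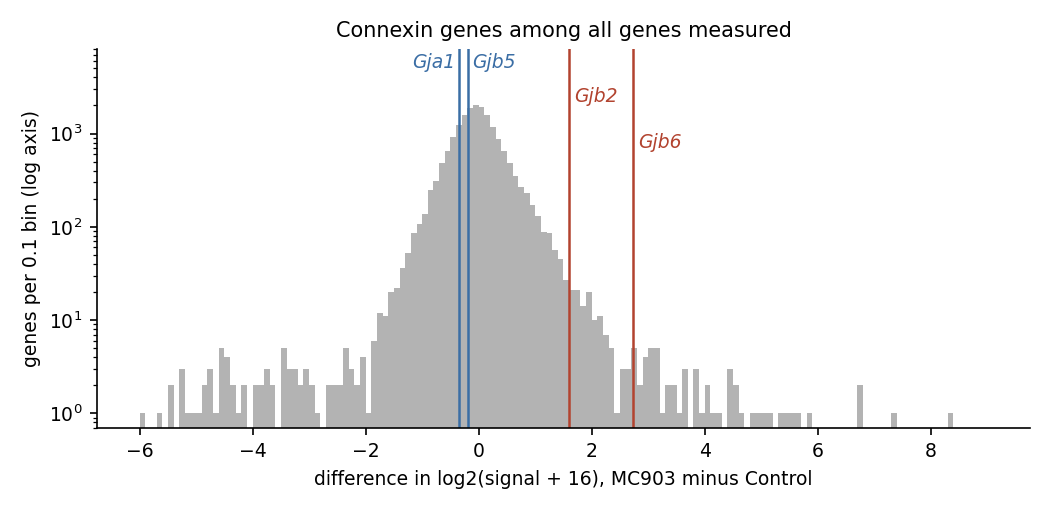
Histogram of the difference in log2(signal + 16), MC903 minus Control, over 18193 genes in bins of 0.1 (the number of genes is on a log axis), with lines at the 4 connexin genes. Gjb6 (2.74) and Gjb2 (1.60) lie in the right tail, while Gjb5 (-0.20) and Gja1 (-0.34) lie within the bulk.

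Of the 4 genes, only Gja1 has more than 1 probe set, and each of its 6 measures the same comparison. The representative, 1437992_x_at, carries the x suffix of probes that may also bind other transcripts, as do 4 of the 6 in all. The bright probe set without that suffix, 1415800_at, had signals of 11595 and 11307 in MC903 against 12820 and 14471 in Control, a difference of -0.25. The probe sets 1438650_x_at and 1438945_x_at gave larger negative differences, -0.56 and -0.51. At 1415801_at the groups overlapped, with 3137 and 2628 in MC903 against 2870 and 4033 in Control. At 1438973_x_at, the dimmest, the signals were 330 and 292 in MC903 against 220 and 302 in Control, a difference of 0.25 in the other direction with overlapping groups. The groups were therefore separated, MC903 lower, at 4 of 6 probe sets, and at 5 of 6 the difference was below 0.

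**Figure D3:**
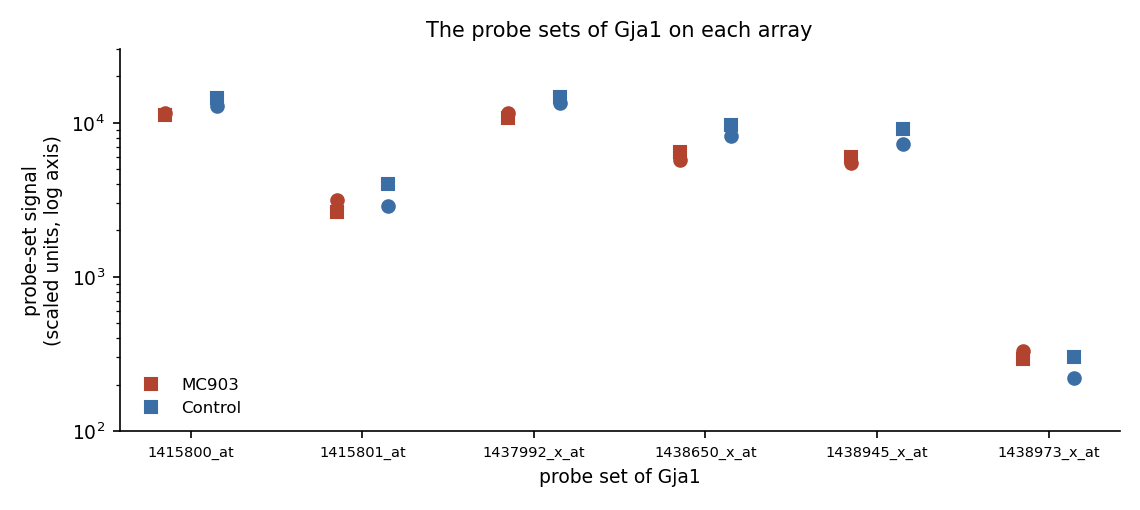
Signals (scaled units, log axis) of the 6 probe sets of Gja1 on the MC903 arrays (red, left of each pair) and the Control arrays (blue, right), circles for replicate 1 and squares for replicate 2. The MC903 arrays lie below the Control arrays at 4 probe sets and overlap them at 1415801_at and 1438973_x_at.

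Over the 4 arrays, each gene's profile was centred on its own mean and compared with the others by Euclidean distance in log2 units. Gjb2 and Gjb6 lay 1.32 apart, and 3.86% of all genes lay nearer to Gjb2 than Gjb6 did. Gjb5 and Gja1 lay 0.48 apart, with 34.3% of genes nearer to Gjb5 than Gja1 was. The genes nearest to Gjb6 were Rbp2 (0.21), Grp (0.28) and Cyp4f18 (0.29). Rbp2, a cellular retinol-binding protein, had signals of 1002 and 333 in MC903 against 77.4 and 86.4 in Control. Grp, gastrin-releasing peptide, had Control signals of 9.48 and 2.81, within the range of the TrpnX controls. The genes nearest to Gjb2 were Pgap6 (0.26), Ano4 (0.30) and Nrg1 (0.40), and Ano4 and Nrg1 each had at least 1 Control signal within the TrpnX range. Nearest to Gjb5 were Epg5 (0.02), Chst1 (0.03) and Zfp994 (0.04), and nearest to Gja1 were Zfp267 (0.0045), Arrdc1 (0.03) and Rbpj (0.03), the last the DNA-binding factor of Notch signalling. These distances describe 4 arrays only.

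The other connexin genes analysed here, 10 in number, were dim in these samples. Gja4 and Gjc1 had signals above the TrpnX controls on every array, and the other 8 did not. With limma (1 prior variance for all genes, p-values adjusted by Benjamini-Hochberg over the whole table, threshold 0.05), 0 of the 10 were called, where 0% of all genes were called higher and 0% lower. At an unadjusted p below 0.05 limma marked 0 of the 10 as higher and 1 as lower, against 6.82% and 8.39% of all genes. With a prior variance that follows the signal, 0 of the 10 were called, against 0.539% of all genes called higher and 0.385% lower. The median difference of the 10 was 0.24, against -0.04 over all genes. Its sign rested on 1 array, since it was -0.035 without Control replicate 2, 0.138 without Control replicate 1, 0.155 without MC903 replicate 1 and 0.095 without MC903 replicate 2. It was 0.117 with averaged probe sets, and -0.147 over the 3 that remained without the dimmest 25% of genes. Of the 10, 2 were separated upward and 1 downward, where 21.6% and 28.2% of all genes were.

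Gja3, the gene beside Gjb2 and a connexin known from the lens, was the 1 member of that group at least 2-fold lower in every pairing, as were 0.813% of all genes. Its signals were 18.5 and 25.2 in MC903 against 90.9 and 105 in Control, a difference of -1.59 ± 0.18 (SE; limma, adjusted p = 0.145), with 18.5 within the TrpnX range. Its sign was thus opposite to those of its neighbours Gjb2 and Gjb6. The other probe set of Gja3 had 4.01 and 6.91 in MC903 against 34.3 and 5.09 in Control, with overlapping groups. Gja4, a connexin of arterial endothelium and of the same cluster as Gjb5, had 182 and 114 in MC903 against 125 and 129 in Control, with overlap. Gjc1, which encodes Cx45 of smooth muscle and other cells, had 210 and 198 in MC903 against 278 and 186 in Control. Its groups overlapped too, though its dimmer probe set was lower, with 55.9 and 26.4 in MC903 against 108 and 96.3 in Control.

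Gjd4 and Gje1 were separated upward at signals near background. Gjd4 had 5.69 and 38.9 in MC903 against 2.33 and 1.85 in Control, and Gje1 did not exceed 10.3 on any array. Gjb1, known as Cx32 of liver and myelinating Schwann cells, had 23.8 and 19.1 in MC903 against 8.47 and 21.4 in Control. Its other probe set, of almost the same mean brightness, had 28.5 and 30.9 in MC903 against 5.35 and 8.92 in Control. There the groups were separated upward (0.99), so the count of connexins separated upward depends on which probe set stands for Gjb1.

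Pannexins are membrane channels of another family that also release ATP and do not form gap junctions in most cells. Panx1 had signals of 837 and 739 in MC903, against 531 and 528 in Control. The MC903 arrays were both higher, by 0.56 ± 0.16 (SE; limma, adjusted p = 0.266). Panx2 had 2.50 and 4.91 in MC903 against 33.0 and 24.7 in Control (-1.18 ± 0.19, SE; limma, adjusted p = 0.172), at or near the TrpnX range. Panx3, a pannexin of skeletal tissue and differentiating skin cells, had 456 and 1535 in MC903 against 1025 and 1397 in Control, with overlap.

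**Figure D4:**
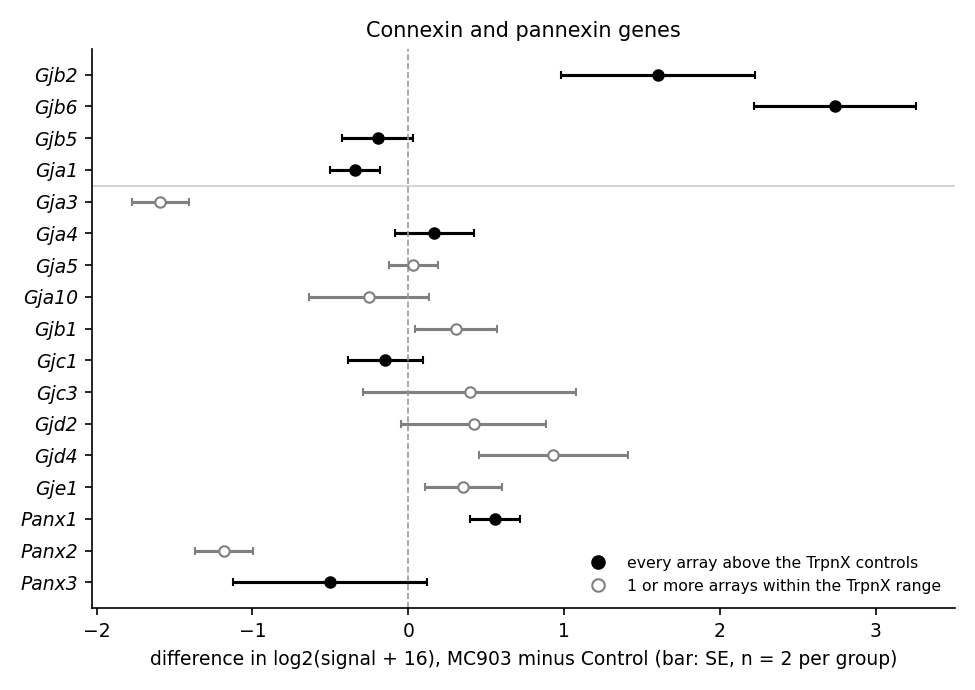
Difference in log2(signal + 16), MC903 minus Control, with its SE (n = 2 per group) for the 4 connexin genes above the line and 10 other connexins and 3 pannexins below it. Open grey points have at least 1 array within the range of the TrpnX controls (up to 24), and Gjb6 and Gjb2 have the largest positive differences of the genes shown.

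The median difference of genes for proteins that bind or regulate connexins was close to that of all genes. Of 20 listed, 17 were measured, limma called 0 of them, with 0 at an unadjusted p below 0.05 and 0 with the prior that follows the signal. Their median difference was -0.001, against -0.04 over all genes. Of the 17, 3 were separated upward and 3 downward, where 21.6% and 28.2% of all genes were. The largest differences were those of Ezr, the membrane-cytoskeleton linker ezrin (0.47 ± 0.23, SE), and Prkce, a protein kinase C isoform (0.43 ± 0.26, SE). Tjp1, the ZO-1 scaffold that binds the tail of Cx43, had signals of 2206 and 2572 in MC903 against 2478 and 2292 in Control. Tjp1 is named for that role, and not by the size of its difference.

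Genes of extracellular ATP signalling, the pathway that hemichannels can feed, had a median difference of 0.34 over 11 of 13 measured, and limma called 0 (1 higher and 2 lower at an unadjusted p below 0.05, where 6.82% and 8.39% of all genes were, and 0 with the prior that follows the signal). The median was 0.052 without MC903 replicate 1, 0.623 without MC903 replicate 2, 0.232 without Control replicate 1 and 0.342 without Control replicate 2. Of the 11, 4 were separated upward and 3 downward, against 21.6% and 28.2% of all genes. The largest differences belonged to the receptors P2ry2 and P2ry4, both with signals within the TrpnX range (up to 24) on at least 1 array. P2ry2, a receptor for ATP and UTP, had 41.5 and 21.7 in MC903 against 7.34 and 6.13 in Control (1.04 ± 0.26, SE; limma, adjusted p = 0.237). P2ry4 had 60.5 and 53.4 in MC903 against 38.5 and 7.41 in Control. Entpd2, an enzyme that breaks down ATP outside cells, had 748 and 793 in MC903 against 1089 and 1197 in Control.

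Keratins of wounded epidermis were higher on the same arrays as Gjb2 and Gjb6. All 4 listed were separated upward, as were 21.6% of all genes, with a median difference of 2.81. That median lies between unlike values, 0.80 for Krt17 and 1.21 for Krt6a against 4.41 for Krt16 and 6.70 for Krt6b. Only Krt16 and Krt6b were at least 2-fold higher in every pairing, as were 1.16% of all genes. With the prior that follows the signal limma called 2 higher, against 0.539% of all genes, and with the constant prior 0. Krt6b had 43037 and 30092 in MC903 against 210 and 514 in Control, and Krt16 had 29372 and 18841 in MC903 against 1021 and 1159 in Control. The Krt6b signal of 43037 was near the highest of any probe set on its array (50150). For both keratins, as for Gjb2 and Gjb6, MC903 replicate 1 was the higher of the MC903 arrays. The defining keratinocyte markers were bright on every array, Krt5 standing at 29772 and 29872 in MC903 against 27745 and 27480 in Control, which fits the labelled tissue. Over 7 of 8 keratinocyte markers measured, the median difference was 0.14, with summed signals of 192987 to 193858 in MC903 and 154714 to 159167 in Control. The markers were uneven. Krt1 had 31840 and 30964 in MC903 against 11798 and 13797 in Control. It was the 1 marker at least 2-fold higher in every pairing, as were 1.16% of all genes. It was also the 1 called with the prior that follows the signal. Trp63 was separated downward (-0.11).

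Marker lists of other cells that carry connexins also differed between the groups, to unlike degrees and not all in 1 direction. The endothelial list, given below, had a median above 0 (0.17). The part of these cells in the connexin differences was not tested. All 12 hair follicle markers were separated downward, as were 28.2% of all genes, with a median difference of -3.00. Their summed signals were 9431 to 10439 in MC903 and 31823 to 53296 in Control. With the prior that follows the signal limma called 6 of them lower, against 0.385% of all genes. Of 6 fibroblast markers, 4 were separated downward and 0 upward, against 28.2% and 21.6% of all genes. Their median was -0.22, with sums of 67811 to 72965 in MC903 and 78376 to 84767 in Control. The groups overlapped for Col3a1 (-0.02) and Pdgfra (0.05). Of 6 mural cell markers, 3 were separated downward, 0 upward and 3 overlapped, where 28.2% of all genes were separated downward and 21.6% upward. The mural median was -0.33, with sums of 5056 to 5555 in MC903 and 6376 to 7284 in Control. Among the overlapping markers Myh11 was higher (0.22) and Rgs5 lower (-0.17). Des, also lower (-0.98), had 239 and 654 in MC903 against 1068 and 600 in Control. Of the lists for cells named above as carrying Cx43, the hair follicle, fibroblast and mural lists had medians below 0. The keratinocyte list, also of such cells, had a median above 0 (0.14). Of its markers 6 of 7 were separated upward, against 21.6% of all genes.

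The MC903 arrays differed from each other in macrophage, neutrophil and skeletal muscle markers. Dendritic cell markers, also of leukocytes, did not follow this. Against the mean of Control, their medians were 0.174 on MC903 replicate 1 and 0.189 on replicate 2. Macrophage markers summed to 30338 on MC903 replicate 1 and 13726 on replicate 2, against 10681 and 9425 in Control, with 5 of 5 separated upward, where 21.6% of all genes were. For neutrophils the sums were 1737 and 586 in MC903 against 445 and 415 in Control, 2 of 3 measured markers being separated upward. For T cells 4 of 4 measured were separated upward (median 1.13), against the same 21.6% of all genes. Skeletal muscle markers summed to 9582 on MC903 replicate 1 and 38120 on replicate 2, against 48979 and 29913 in Control. Their median was -0.65 (0.19 without MC903 replicate 1), and 1 of 6 was separated, downward, as were 28.2% of all genes. The array with the higher Gjb2 and Gjb6 signals was thus also the one with more macrophage and neutrophil signal and less muscle signal. The MC903 arrays parted on other lists as well. Against the mean of Control, MC903 replicates 1 and 2 had medians of 0.388 and 1.127 for adipocyte markers. For sebaceous gland markers these were -0.362 and 0.426. The part of these tissues in the connexin signals was not tested.

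Of the other lists, melanocyte markers had a median of -1.21 over 6 genes, all separated downward, as were 28.2% of all genes. Adipocyte markers had a median of 0.76 over 4 of 6, all separated upward, as were 21.6% of all genes. Endothelial markers had a median of 0.17 over 7 genes (3 separated upward and 1 downward, against 21.6% and 28.2% of all genes). Sebaceous gland markers had a median of 0.10 over 4 of 6, dendritic cell markers of 0.11 over 5 and mast cell markers of 0.22 over 5. The sign of 2 of these medians turned with 1 array left out. The sebaceous gland median was -0.362 without MC903 replicate 2, 0.426 without MC903 replicate 1 and -0.001 without Control replicate 1, and the mast cell median was -0.042 without MC903 replicate 1, 0.49 without MC903 replicate 2 and -0.001 without Control replicate 2. With 1 array left out the adipocyte median ran between 0.388 and 1.127, the endothelial between 0.063 and 0.315 and the dendritic between 0.068 and 0.189. On these lists together limma with the constant prior called 0 genes, as it did over the whole table. With the prior that follows the signal, limma called 1 melanocyte marker lower (Pmel), against 0.385% of all genes. It called 0 on the other lists of this paragraph.

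**Figure D5:**
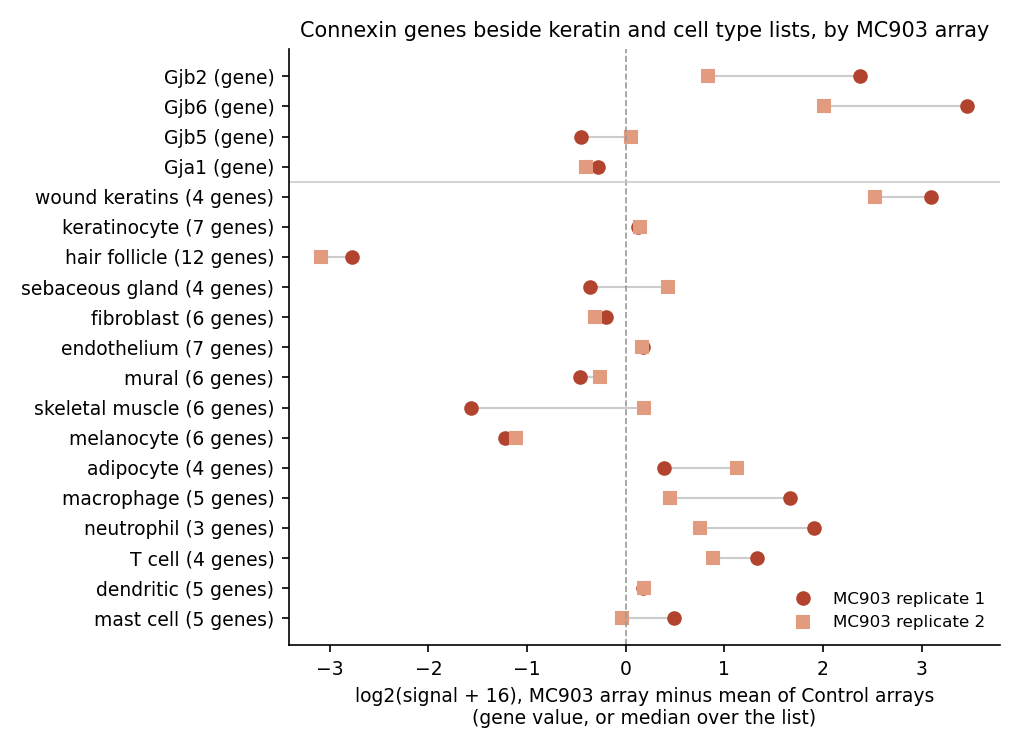
Each MC903 array minus the mean of the Control arrays in log2(signal + 16), for the 4 connexin genes (above the line) and as the median over each keratin or cell type list (below it), circles for MC903 replicate 1 and squares for replicate 2. Gjb2 (2.38 and 0.83) and Gjb6 (3.46 and 2.01) are higher on replicate 1, as are the macrophage (1.67 and 0.45) and neutrophil (1.91 and 0.75) lists. The skeletal muscle (-1.56 and 0.19), adipocyte (0.39 and 1.13) and sebaceous gland (-0.36 and 0.43) lists are lower on it.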

How the data were processed

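Skin RNA was hybridised as biotin-labelled target to 3′ arrays, per the labels' protocols. The authors deposited linear array intensity for 45101 probe sets on 4 arrays, made with software not given in the sources used here. On each array the mean without the highest and lowest 2% was 500, so the authors' values had been scaled. No detection calls were given.

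Probe sets were named from the platform annotation, with symbols updated by Entrez ID (34741 of 34945 with 1 symbol matched RefSeq, GRCm38.p6). Probe sets with several symbols (932), unlisted (9160) or array controls (64) were left out. The probe set with the highest mean of log2(signal + 16) over the 4 arrays stood for each gene, giving 18193 genes. Groups (2 MC903, 2 Control) came from the labels and entered limma 3.58.1 (R 4.3.3) with a constant prior variance (eBayes, Benjamini-Hochberg over all genes, threshold 0.05), with no filter on dim genes. The fit was run on simulated data, with noise drawn from the prior that follows the signal and differences added only to brighter genes. That noise did not follow the constant prior, so the run is no check of the constant prior's calls. With 2 arrays a group, the smallest two-sided p of an exact permutation test is 0.333. Groups separated means that each MC903 array lay above, or below, each Control array.

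The 4 genes and all lists were chosen with earlier results of these data known. Named genes are the 4 connexins, other connexins and pannexins that were separated or share a cluster with a member, the 2 largest differences of the partner, ATP and wound keratin lists, and the 3 genes nearest in profile to each member. The rule also took 2 genes of each marker list, most of which are given here only as part of their list. Others were named for their role or to describe a count, after their values had been seen. The settings varied were the normalization (quantile, or centring on medians), the constant (1 or 64), the filter (without the dimmest 25% or 50% of genes), the probe set rule (averaging), the prior (following the signal, or robust), a replicate block, and each array left out in turn. Choosing probe sets by mean untransformed signal, each probe set of Gja1, the list medians with each array left out, and all settings of the counts of separated genes were added after the data had been seen. Some other connexins are not reported here.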

Additional observations from a re-analysis of the deposited data

How the results depend on the processing

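The differences of Gjb2 and Gjb6 stayed above 0 under all 12 settings tried. They lay between 0.83 and 2.38 for Gjb2 and between 2.01 and 3.46 for Gjb6, with both ends reached by leaving out an MC903 array. Most settings could not have turned the sign. The filters, averaging and the block left both values unchanged, and with the groups separated no left-out array could turn it. The difference of Gjb5 lay between -0.45 and 0.05, above 0 only without MC903 replicate 1. That of Gja1 (-0.34) was -0.55 with quantile normalization, -0.26 after centring on array medians, -0.25 at probe set 1415800_at, -0.24 at 1415801_at, -0.56 at 1438650_x_at, -0.51 at 1438945_x_at and 0.25 at 1438973_x_at. The cause was not tested.

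Limma's 0 calls higher and 0 lower over all genes (2767 at an unadjusted p below 0.05) became 3 higher with quantile normalization or centring, 41 higher and 29 lower with a constant of 64, and 25 and 17 without the dimmest 25% of genes. They became 96 and 81 without the dimmest 50%, 9 and 3 with averaged probe sets, 98 and 70 with the prior that follows the signal, and 3 and 2 with probe sets chosen by mean signal, which changed the probe set of 91 genes. Without any single array 0 were called either way. The other connexins had 0 calls under each of these settings and with a constant of 1, the robust prior or the block, except that none of the 10 remained without the dimmest 50%, so that setting gave no value. The cause of these changes was not tested.

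Genes at least 2-fold higher and lower in every pairing (211 and 148) became 401 and 316 with a constant of 1, 125 and 90 with 64, and 96 and 78 without the dimmest 50%. With 1 array left out only 2 pairings must pass, and they came to 415 to 659 higher and 279 to 557 lower. Genes separated upward and downward (3921 and 5123) became 5227 and 3827 after centring and 2072 and 3028 without the dimmest 50%, and came to 5879 to 6513 and 7080 to 8037 with 1 array left out.

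The replicate block left 0 calls higher and 0 lower, and all 4 member differences unchanged. Nothing in the labels pairs arrays by number, and the deviations of arrays with the number 1 correlated at -0.061 over genes. Signals near the TrpnX range limit most other connexins.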
